A study of Mus musculus with 9 samples.

Results

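The genes of MHC class I and class II antigen presentation were examined in mouse bone marrow MEPs, the bipotent progenitors of megakaryocytes and erythroid cells. The set held 10 genes, 5 of class I (B2m, H2-K1, H2-D1, Tap1 and Tapbp) and 5 of class II (H2-Aa, H2-Ab1, H2-Eb1, Cd74 and Ciita), taken as the rows whose Ensembl identifier carries one of these symbols in GENCODE mouse release M21. All 10 were found among the 35275 identifiers counted, and no measured value is part of the rule. The genes were, however, chosen with earlier results of these data known, so their shares beside all genes are descriptive. The question put to the counts was how the level of each gene differed with binding of HS3A8, a single-chain antibody fragment (scFv) that recognizes heparan sulfate (HS), the sulfated glycan of proteoglycans.

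MEPs were purified by FACS as Lin-ckit+CD34-FcγRII/IIIlo cells and split by HS3A8 staining. HS3A8-high MEPs were the cells with the higher binding and HS3A8-low MEPs those with the lower binding. The MPB49 control consisted of unsplit MEPs, stained with the scFv MPB49, which does not appear to bind HS, and then mock-sorted. Each group had 3 bulk RNA-seq libraries of 25000 MEPs, and no group carried a mutation, transgene or treatment by its label. The methods of the study list C57Bl/6 wild-type mice among the strains used, and state that mice were matched for age and sex in all experiments. They do not say which strain gave these libraries. The study describes replicates of the HS3A8 fractions as individual mice. Whether both fractions of a number came from the same mouse, and whether control replicates were separate mice, is not given in the sources used here, so p-values that involve the control may measure technical spread only.

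MHC class I molecules stand on nearly every nucleated cell and show peptides of cytosolic proteins to CD8 T cells. They consist of a heavy chain, such as H2-K or H2-D, and the light chain beta-2-microglobulin, and receive their peptides in the endoplasmic reticulum from the TAP transporter with the help of tapasin. MHC class II molecules are pairs of an alpha and a beta chain that show endocytosed peptides to CD4 T cells, are guided by the invariant chain Cd74, and depend on the transcriptional coactivator Ciita. Class II is best known from B cells, dendritic cells and macrophages, and is also found on early hematopoietic progenitors.

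Library totals ran from 11781637 to 15850037 counts, so a count of 0 allows up to 3 counts, or 0.189 to 0.255 CPM (a gene's share of the library's counts, scaled by TMM). Between 13936 and 15659 genes had a count. Each library carried MEP and erythroid transcripts, and 12 such genes summed to 9954 to 10426 CPM (HS3A8-high), 7821 to 8562 CPM (HS3A8-low) and 8308 to 9551 CPM (control). Replicate 3 of both HS3A8 fractions stood apart by transcripts of other myeloid cells. There, 13 granulocyte genes summed to 1282 CPM (HS3A8-high) and 2943 CPM (HS3A8-low), against 5.09 to 205 CPM in the other 7 libraries. Control replicate 1 differed from the other control libraries over all genes, by a chi-square statistic of 150 and 196 for each degree of freedom, against 9.61 between replicates 2 and 3. The member results that these libraries move are given with and without them.

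The start of 3 members is shown because their transcripts fell in HS3A8-high MEPs and because one, H2-K1, is a class I heavy chain and the others, H2-Aa and H2-Eb1, are a class II alpha and beta chain. The sequences are the 250 bases before the RefSeq start on GRCm38.p6, read 5′ to 3′ in the direction of the gene. H2-K1 lies at chr17:34000348-34000597 on the minus strand, H2-Aa at chr17:34287824-34288073 on the minus strand and H2-Eb1 at chr17:34305617-34305866 on the plus strand. Capitals mark matches, on either strand, to short motifs chosen after the promoters had been read.
H2-K1: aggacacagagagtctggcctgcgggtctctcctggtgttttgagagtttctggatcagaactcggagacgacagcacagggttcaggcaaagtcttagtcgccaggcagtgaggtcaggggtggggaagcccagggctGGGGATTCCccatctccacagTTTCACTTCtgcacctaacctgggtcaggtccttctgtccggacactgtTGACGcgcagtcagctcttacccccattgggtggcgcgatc
H2-Aa: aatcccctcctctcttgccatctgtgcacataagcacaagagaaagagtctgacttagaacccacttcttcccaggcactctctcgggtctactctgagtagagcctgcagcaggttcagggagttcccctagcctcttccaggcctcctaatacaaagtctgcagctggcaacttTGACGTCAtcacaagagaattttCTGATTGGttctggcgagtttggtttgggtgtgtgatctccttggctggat
H2-Eb1: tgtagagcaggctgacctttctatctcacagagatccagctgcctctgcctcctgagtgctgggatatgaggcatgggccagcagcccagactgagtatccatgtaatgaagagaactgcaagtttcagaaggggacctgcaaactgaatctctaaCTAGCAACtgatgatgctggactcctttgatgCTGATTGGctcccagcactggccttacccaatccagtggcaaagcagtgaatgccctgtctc

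Both class II promoters held CTGATTGG, an inverted CCAAT box of the kind named the Y box of class II genes, 51 bases before the start in H2-Aa and 62 in H2-Eb1. It stood on the other strand of Tap1, 222 bases before the start, and of H2-D1, at 53. The letters CTGATTGG occurred in 3.83% of 32851 RefSeq promoters of the same 250 bases. In H2-Aa the letters TGACG, a part of the cyclic AMP response element, stood on both strands and overlapped, 74 and 71 bases before the start, and TGACG occurred in 17.8% of promoters. H2-Eb1 had CTAGCAAC, the core of an X box, 94 bases before the start, a motif of 1.13% of promoters. The H2-K1 promoter held GGGGATTCC, an NF-kB-like motif found in 0.213% of promoters, 111 bases before the start. GAANNGAAA, a part of the interferon-stimulated response element present in 6.31%, followed on the other strand at 90, and TGACG at 41. The 7 members whose promoters were read were B2m, H2-K1, H2-D1, Tap1, Tapbp, H2-Aa and H2-Eb1. H2-D1 held the same NF-kB-like and interferon-type letters as H2-K1 (171 and 150 bases before its start), and Tapbp held no letters of the 5 motifs. A match is a string of letters and says nothing of binding in these cells.

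HS3A8-high MEPs had less RNA of 6 of the 10 members than HS3A8-low MEPs, namely H2-K1, H2-D1, H2-Aa, H2-Ab1, H2-Eb1 and Cd74. The class II chains and Cd74 differed 3.01- to 10.7-fold and the class I heavy chains 1.31- to 1.46-fold. None of the members was higher in HS3A8-high. By the same test, 3.21% of the 11791 genes tested were called lower in HS3A8-high. A call is an edgeR quasi-likelihood p under 0.05 after Benjamini-Hochberg adjustment over all genes tested. With CPM scaled over the 6 libraries compared, the groups did not overlap for 7 of the 10 members, against 15.7% of all genes lower in HS3A8-high without overlap. On the scaling over all 9 libraries, which is that of every CPM printed here, Tap1 and Tapbp joined them, and the count was 9 of 10 against 15.1%. The median log2 fold change of the 10 members was -1.06, and that of all genes tested -0.03. Calls depended on single libraries: 0 members were called without replicate 1 of HS3A8-high or replicate 2 of HS3A8-low, 1 (Cd74) without replicate 2 of HS3A8-high, 2 (Cd74 and H2-Ab1) without replicate 1 of HS3A8-low and 3 (Cd74, H2-Ab1 and H2-Eb1) without replicate 3 of HS3A8-low. Without replicate 3 of HS3A8-high, 4 were called (H2-Aa, H2-Ab1, H2-Eb1 and Cd74). In bulk libraries, fewer cells of a type and less RNA per cell cannot be told apart.

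**Figure D1:**
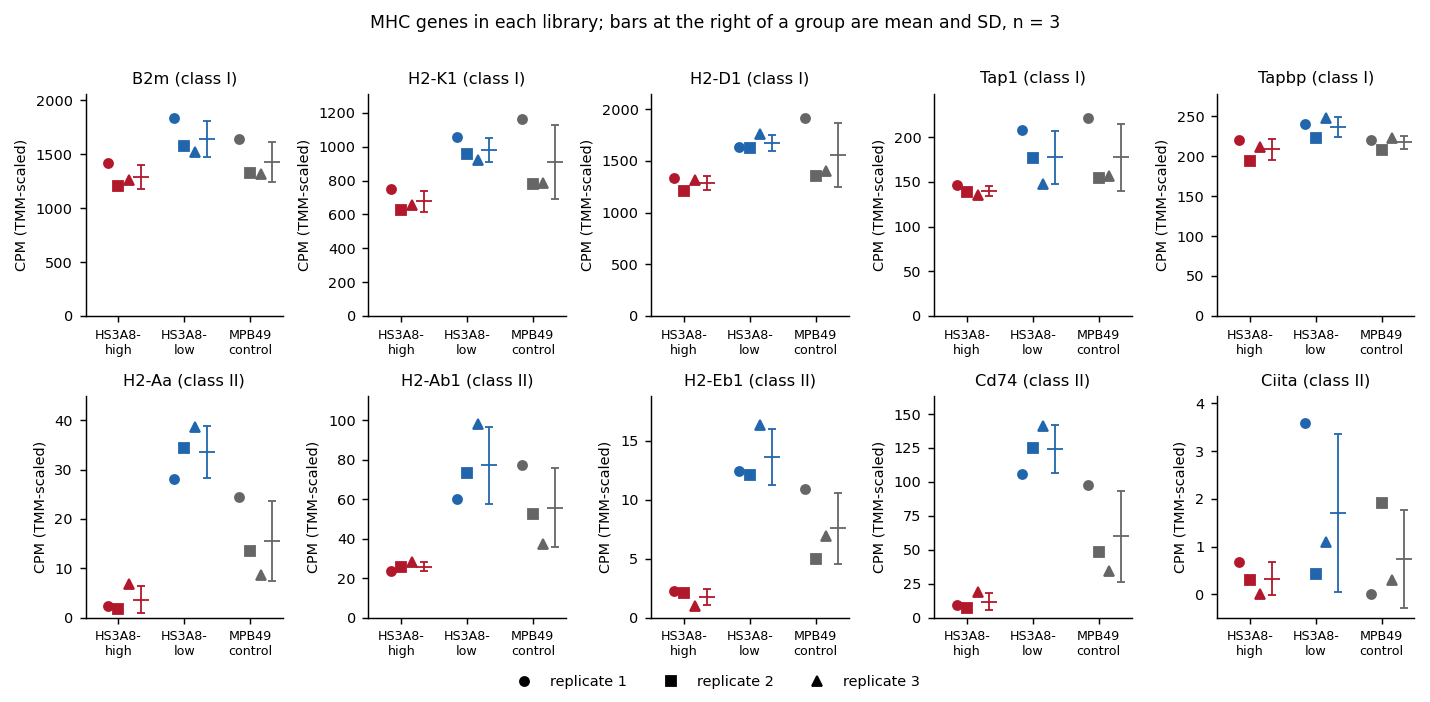
TMM-scaled CPM of the 10 MHC genes in each of the 9 libraries, with 1 panel for each gene and linear axes. Symbols are libraries, and the bars give the mean and SD of 3. HS3A8-high sits lowest in all class II panels but Ciita, for example at 1.82 to 6.83 CPM against 28.1 to 38.6 in HS3A8-low for H2-Aa.

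The replicate numbers were taken to pair the HS3A8-high and HS3A8-low libraries. That pairing was read from correlations in these same counts (r from 0.325 to 0.509 for equal numbers), and the labels do not state it. When the number entered the model as a block, 7 members were called lower in HS3A8-high, the 6 above and B2m, against 8.27% of all genes tested. All 10 members again had their lower value in HS3A8-high.

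Cd74, the invariant chain that occupies the groove of new class II molecules, had the largest log2 difference between the fractions when no library was left out. H2-Aa differed more in fits without HS3A8-high replicate 3 (-4.01 against -3.94, and -3.89 against -3.82 without both replicates 3). Ciita, which was not called, differed more without HS3A8-high replicate 1 (-3.51 against -3.27). The level of Cd74 was 9.07, 6.99 and 18.9 CPM in HS3A8-high replicates 1 to 3, 106, 125 and 141 CPM in HS3A8-low and 97.6, 48.1 and 33.98 CPM in the control. The 2 fractions were far apart. The control, unsplit MEPs that include cells of both kinds, lay between them. Cd74 fell by 3.42 on the log2 scale in HS3A8-high against HS3A8-low (SE 0.367, edgeR adjusted p = 0.0114), or 10.7-fold. Without replicate 3 of both fractions Cd74 stayed called (edgeR adjusted p = 0.00178).

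H2-Aa (chr17:34282744-34287823, minus strand, GRCm38), the alpha chain of the I-A molecule, followed Cd74. It was measured at 2.30, 1.82 and 6.83 CPM in HS3A8-high, 28.1, 34.3 and 38.6 CPM in HS3A8-low and 24.5, 13.5 and 8.73 CPM in the control. These levels rest on 24 to 103 counts in HS3A8-high and on 454 to 478 in HS3A8-low. The highest HS3A8-high value came from replicate 3, and it was still below the lowest control value. H2-Aa fell by 3.21 on the log2 scale (SE 0.502, edgeR adjusted p = 0.0268).

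H2-Ab1 (chr17:34257689-34269419, plus strand), the beta chain of the same molecule, differed less. Its level was 23.5, 25.8 and 28.2 CPM in HS3A8-high, 60.0, 73.2 and 98.4 CPM in HS3A8-low and 77.2, 52.5 and 37.5 CPM in the control. The HS3A8-high values lay within a narrow band, with an SD of 2.38 CPM, and below those of both other groups. H2-Ab1 fell by 1.59 on the log2 scale (SE 0.190, edgeR adjusted p = 0.0135), or 3.01-fold.

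H2-Eb1 (chr17:34305867-34316674, plus strand) encodes the beta chain of the I-E molecule. Its level was 2.24, 2.05 and 0.994 CPM in HS3A8-high, 12.4, 12.1 and 16.3 CPM in HS3A8-low and 10.9, 4.98 and 6.90 CPM in the control. Replicate 3, the highest HS3A8-high library for H2-Aa, H2-Ab1 and Cd74, was the lowest for H2-Eb1, at 15 counts. H2-Eb1 fell by 2.95 on the log2 scale (SE 0.366, edgeR adjusted p = 0.0159). H2-Ea-ps, the row of the partner alpha chain, which C57BL/6 mice do not make, had 0 counts in all 9 libraries.

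Ciita (chr16:10480059-10528418, plus strand), the coactivator on which class II transcription depends, was rare and uneven. HS3A8-high libraries had 11, 4 and 0 counts of it, HS3A8-low libraries 61, 6 and 13, and control libraries 0, 30 and 4. The groups overlapped, and 1 library in each group held most of the counts. The log2 difference between the fractions was -2.36 with a 95% interval of -5.07 to 0.35 (edgeR adjusted p = 0.318), so that no difference was detectable with these libraries.

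B2m (chr2:122147686-122153083, plus strand), the light chain shared by class I molecules, was the most abundant member per kilobase of transcript. Its level was 1415, 1203 and 1258 CPM in HS3A8-high, 1837, 1573 and 1523 CPM in HS3A8-low and 1647, 1327 and 1321 CPM in the control. The fractions did not overlap, and the control had values in the range of each. The log2 difference of -0.36 (SE 0.108) was not called without the block (edgeR adjusted p = 0.129) and was called with it, at the same log2 difference (adjusted p = 0.0139).

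H2-K1 (chr17:33996017-34000347, minus strand) and H2-D1 (chr17:35262730-35267499, plus strand) encode the classical class I heavy chains. H2-K1 was at 749, 629 and 654 CPM in HS3A8-high, 1060.1, 960 and 923 CPM in HS3A8-low and 1164, 779 and 786 CPM in the control. H2-D1 was at 1331, 1208 and 1316 CPM in HS3A8-high, 1639, 1623 and 1758 CPM in HS3A8-low and 1915, 1351 and 1403 CPM in the control. For both genes the HS3A8-high libraries were below all others, and control replicate 1 was above all others. H2-K1 fell by 0.54 on the log2 scale between the fractions (SE 0.103, edgeR adjusted p = 0.0393) and H2-D1 fell by 0.39 (SE 0.0699, adjusted p = 0.0351). Neither call held without replicate 3 of both fractions, where the adjusted p was 0.0637 for H2-K1 and 0.101 for H2-D1 at differences of -0.54 and -0.35. Nor did they hold with any 1 of the 6 libraries left out. The edgeR adjusted p was then 0.0557 to 0.160 for H2-K1 and 0.0622 to 0.139 for H2-D1. The joint fit of all 9 libraries called neither (edgeR adjusted p = 0.228 and 0.324), and H2-D1 was not called without a count filter (edgeR adjusted p = 0.0581). Of 2003 windows of 100 bases in the longest H2-D1 coding transcript, 4.64% occurred letter for letter in other class I genes, and none of the H2-K1 windows did.

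Tap1 (chr17:34187553-34197225, plus strand), a subunit of the peptide transporter, had 146, 139 and 135 CPM in HS3A8-high. The same gene had 208, 177 and 148 CPM in HS3A8-low and 221, 155 and 156 CPM in the control. One HS3A8-low library was near the HS3A8-high values, and the log2 difference was -0.35 without the block and -0.34 with it, and neither was called (edgeR adjusted p = 0.219 and 0.0617). Tapbp (chr17:33915899-33929292, plus strand) encodes tapasin, which holds class I molecules at the transporter. Its levels of 194 to 220 CPM in HS3A8-high, 223 to 248 CPM in HS3A8-low and 208 to 223 CPM in the control were the closest of all members. Its log2 difference was -0.19, with a 95% interval of -0.41 to 0.03 (edgeR adjusted p = 0.313). Exons of other genes cover 29% of the Tapbp exons, of either strand, and 4.11% on the same strand, and whether counting used the strand is not given in the sources used here.

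**Figure D2:**
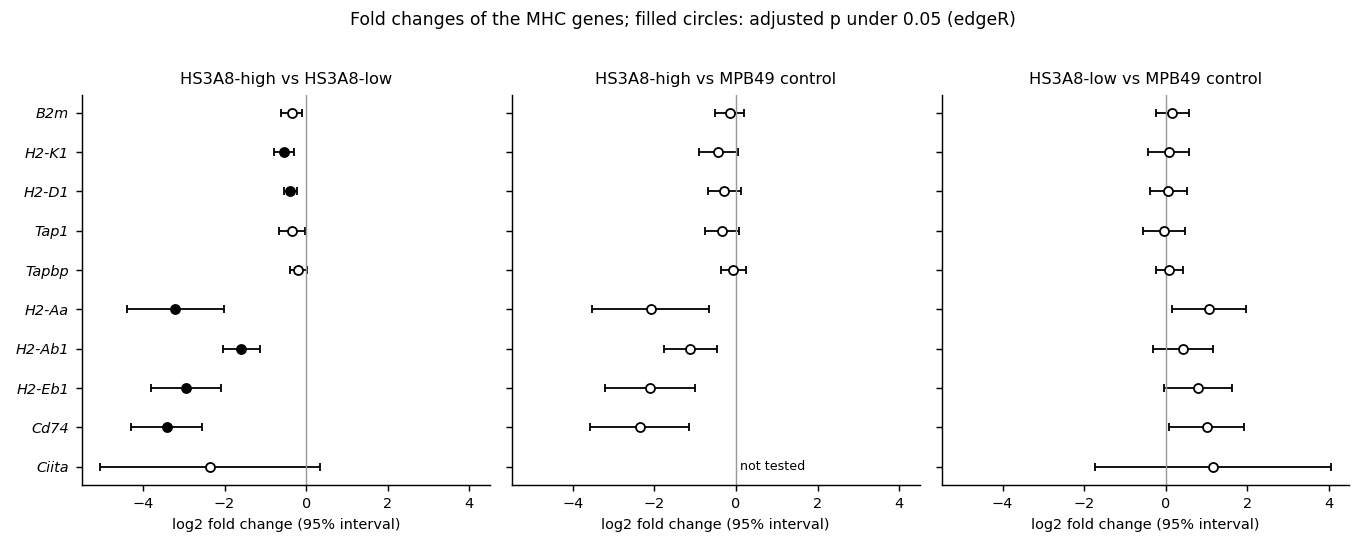
Log2 fold change of each MHC gene with its 95% interval in the 3 comparisons. Filled circles passed an adjusted p of 0.05 in edgeR. All 6 filled circles are in the comparison of HS3A8-high with HS3A8-low, and Ciita was not tested against the control in HS3A8-high.

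Per kilobase of the longest coding transcript, B2m led in all 3 groups, followed by H2-D1 and H2-K1, and Ciita was last. In HS3A8-low the means were 1912 ± 196 CPM per kb for B2m, 796 ± 35.03 for H2-D1 and 606 ± 43.9 for H2-K1 (SD, n = 3). Cd74 came next at 88.0 ± 12.5 CPM per kb, and its range of 75.1 to 100 overlapped that of Tapbp, 76.8 to 85.4. H2-Ab1 at 63.7 ± 16.1 CPM per kb overlapped both Tapbp and Tap1, at 60.1 ± 10.2, while H2-Aa at 29.8 ± 4.68 and H2-Eb1 at 8.15 ± 1.41 were lower than all of these. In HS3A8-high, Cd74 was the member that changed place most, at 8.26 ± 4.51 CPM per kb below H2-Ab1 at 21.3 ± 1.96 and overlapping H2-Aa at 3.24 ± 2.45. No other neighbours overlapped in HS3A8-high down to H2-Eb1. The control had the order of HS3A8-high, with overlap between H2-D1 and H2-K1, Tapbp and Tap1, Tap1 and H2-Ab1, and H2-Ab1 at 46.0 ± 16.5 and Cd74 at 42.5 ± 23.7 CPM per kb.

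Ratios within a library do not depend on its depth. Summed CPM of H2-Aa, H2-Ab1, H2-Eb1 and Cd74 over that of H2-K1 and H2-D1 was 0.0178 to 0.0279 in HS3A8-high, 0.0765 to 0.110 in HS3A8-low and 0.0398 to 0.0683 in the control. No ranges overlapped, so class II RNA was lower in HS3A8-high also relative to class I RNA of the same library. An exact permutation test of the log2 ratio gave a two-sided p of 0.1 for each pair of groups (n = 3 each), the smallest that 3 against 3 libraries allow.

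The proportion of Cd74 to H2-Aa varied little. Their CPM ratio was 3.65 to 3.77 in HS3A8-low, 3.55 to 3.99 in the control and 2.77 to 3.95 in HS3A8-high, where replicate 3 was the lowest. The groups overlapped (exact permutation p from 0.4 to 1, two-sided, n = 3). For H2-Ab1 the CPM ratio to H2-Aa was 10.2, 14.1 and 4.14 in HS3A8-high replicates 1 to 3, 2.13 to 2.55 in HS3A8-low and 3.15 to 4.29 in the control. The fractions did not overlap in this ratio, and HS3A8-high and the control overlapped through HS3A8-high replicate 3. The mean log2 ratio was 3.07 in HS3A8-high and 1.18 in HS3A8-low (exact permutation p = 0.1, two-sided, the smallest possible for n = 3). Within class I, H2-D1 over H2-K1 was 1.78 to 2.01 in HS3A8-high, 1.55 to 1.91 in HS3A8-low and 1.65 to 1.79 in the control, with overlap between all groups.

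**Figure D3:**
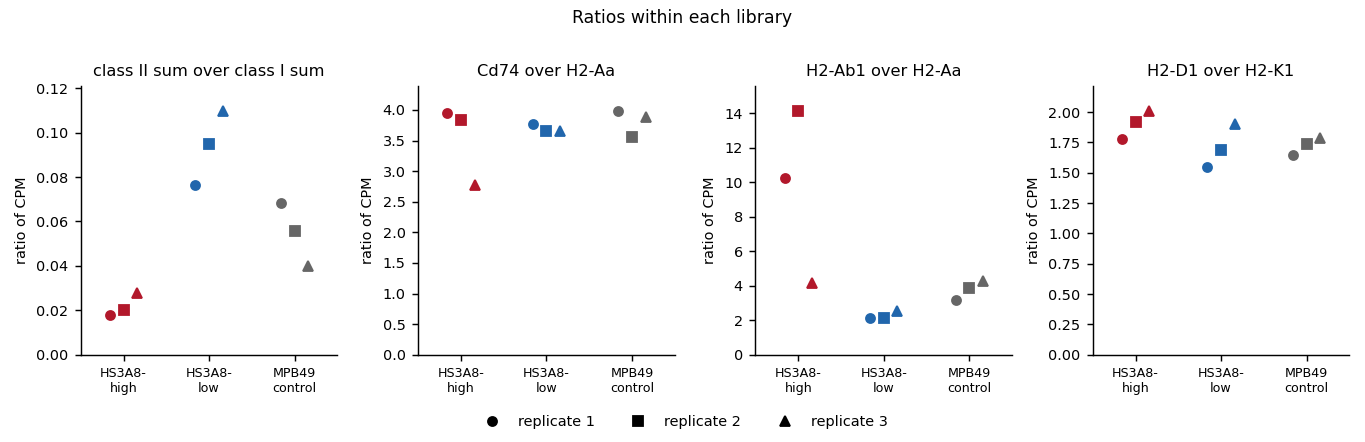
Ratios of CPM within each library, for class II over class I sums and for gene pairs. Each symbol is a library. The Cd74 over H2-Aa ratio lies between 2.77 and 3.99 in all libraries, while H2-Ab1 over H2-Aa reaches 14.1 in HS3A8-high.

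Against the MPB49 control, HS3A8-high MEPs had lower values of all 9 members tested and of 5783 of the 11486 genes tested. None of the members was called by edgeR, where 0.0174% of all genes tested were called. The 3 comparisons share libraries in pairs, so their results are not independent. An unadjusted p under 0.05 was reached by 4 members and by 4.89% of all genes. These were H2-Aa, H2-Ab1, H2-Eb1 and Cd74, with log2 differences of -2.09, -1.12, -2.11 and -2.37 and edgeR adjusted p from 0.411 to 0.660. DESeq2 called the same 4 genes lower in HS3A8-high, with adjusted p from 0.000394 to 0.0405, against 1.07% of the genes it tested. The groups did not overlap for 7 members, all but B2m and Tapbp, against 7.19% of all genes. B2m differed by -0.16 on the log2 scale, with a 95% interval of -0.52 to 0.21. Without control replicate 1 the differences shrank, to -0.03 for B2m, -0.20 for H2-K1, -0.09 for H2-D1, -0.14 for Tap1 and -0.04 for Tapbp. Those of H2-Aa, H2-Ab1, H2-Eb1 and Cd74 became -1.60, -0.80, -1.74 and -1.81, and again no member was called. Ciita did not pass the count filter.

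No member was called between HS3A8-low MEPs and the control. edgeR called 0 of 10, as it called 0% of the 11878 genes tested, and DESeq2 called 0 of 10, against 0.71% of its genes. An unadjusted p under 0.05 was reached by H2-Aa and Cd74, and by 5.67% of all genes. H2-Aa, H2-Eb1 and Cd74 did not overlap, with HS3A8-low higher by 1.06, 0.80 and 1.0 on the log2 scale (7.91% of all genes were higher without overlap). Without control replicate 1 these became 1.57, 1.18 and 1.58, and over all libraries left out in turn the lowest values were 0.77, 0.56 and 0.71. The log2 differences of B2m, H2-K1, H2-D1, Tap1 and Tapbp lay between -0.04 and 0.16, and each of their 95% intervals included 0. For Cd74 the interval was 0.08 to 1.92, and the lone control library near the HS3A8-low values was replicate 1, at 97.6 CPM.

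Other genes of presentation were taken from 5 lists with 87 genes, of which 78 could be tested between the fractions. The lists, like the members, were chosen with earlier results of these data known. edgeR called 8 of them lower in HS3A8-high, beside 3.21% of all genes, and 0 higher. With the replicate block it called 18 lower, beside 8.27% of all genes, and 1, Canx, higher, beside 3.32%. Without replicate 2 of HS3A8-low, 0 were called, and 1 to 7 without any other single library. Genes called only with the block, and others outside the 3 most abundant of a list, were named after their values were seen. The median log2 fold change was -0.38 over the lists and -0.03 over all genes.

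The class I assembly list moved in part. Of 11 genes, Psmb8 and Psmb9, catalytic subunits of the immunoproteasome, fell by 0.80 and 0.66 on the log2 scale (edgeR adjusted p = 0.0181 and 0.0294). For Psmb8 the HS3A8-high mean was 50.6 CPM, the HS3A8-low mean 87.5 CPM and the control mean 73.2 CPM. Tap2, the partner of Tap1, joined them with the block (log2 difference -0.46, adjusted p = 0.0203). The abundant chaperones Calr and Pdia3 had log2 differences of -0.02 and -0.01, while Canx, a chaperone of heavy chains and of many other glycoproteins, was 0.30 higher in HS3A8-high (adjusted p = 0.0508, and 0.0293 with the block).

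Among 18 other class I and class I-like heavy chains, 12 could be tested. All 12 had lower values in HS3A8-high, as had 6292 of all 11791 genes, and 2 were called, beside 3.21% of all genes. Fcgrt could be tested against the control only in HS3A8-low, so the count filter favours its lower value in HS3A8-high. H2-T23, which encodes Qa-1, a ligand of NK cell receptors, fell by 1.05 on the log2 scale (SE 0.0967, edgeR adjusted p = 0.00712), from a mean of 225 CPM in HS3A8-low to 109 in HS3A8-high. Cd1d1, which presents lipids to NKT cells, fell by 1.28 (edgeR adjusted p = 0.0319). H2-Q6 and H2-Q7, close paralogs between which reads may be split with uncertainty, had log2 differences of -1.26 and -0.67 and were called with the block only (-1.35 and -0.71, adjusted p = 0.0142 and 0.0175).

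Of 10 class II loading and processing genes tested, 3 were called lower: H2-Ob and H2-Oa, which form the DO modulator of peptide loading, by 3.19 and 2.58 on the log2 scale, and H2-DMb1, a chain of the DM peptide exchanger, by 1.66 (edgeR adjusted p = 0.0135, 0.0363 and 0.0323). The HS3A8-high mean of H2-Ob was 2.66 CPM, with 24.5 CPM for HS3A8-low and 16.5 CPM for the control. H2-DMa, the other DM chain, had means of 35.4, 64.5 and 48.2 CPM in the same order, a log2 difference between the fractions of -0.87 (adjusted p = 0.0514, and with the block -0.88 and adjusted p = 0.0072). The protease Ctsl differed by -0.01, the thiol reductase Ifi30 by -0.19 and March8, a membrane ubiquitin ligase, by 0.32, and none of them was called. Ctss, the protease that trims Cd74, had a log2 difference of -1.58 (adjusted p = 0.595 in edgeR) and was called with the block only (-2.18, adjusted p = 0.0223).

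Among 18 regulators, only Irf1 was called in the fit without the block. Irf1, an interferon-induced activator of class I genes, fell by 1.74 on the log2 scale (edgeR adjusted p = 0.0282), from a mean of 28.6 CPM for HS3A8-low to 8.59 CPM for HS3A8-high, beside 26.01 CPM for the control. Irf8, a transcription factor of myeloid and dendritic cells, had a log2 difference of -1.86 (adjusted p = 0.466 in edgeR) and was called with the block only (-2.65, adjusted p = 0.0229). The members of the complexes that bind class II promoters, Rfx5, Rfxap, Rfxank, Nfya, Nfyb and Nfyc, had log2 differences between -0.38 and 0.23 and none was called, nor was Nlrc5, the class I coactivator, at -0.10. Receptors and kinases of the interferon pathway, such as Ifngr1, Jak1 and Jak2, differed by -0.03, -0.07 and 0.05. Of 27 interferon-stimulated genes tested, 26 had their lower value in HS3A8-high, as had 6292 of all 11791 genes, and none was called. An unadjusted p under 0.05 was reached by 6, a share near that of all genes, 19.8%. The median log2 difference of the 27 was -0.38. With the block 4 were called lower, Irf9, Oasl2, Rtp4 and Zbp1, beside 8.27% of all genes. The most abundant, Ly6e and Irgm1, differed by -0.06 and -0.03. Mx1 and Cxcl10 could be tested against the control only in HS3A8-low, so the count filter favours their lower values in HS3A8-high.

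Against the control edgeR called none of the 75 pathway genes tested in HS3A8-high or of the 78 in HS3A8-low. In each comparison 8 had an unadjusted p under 0.05, beside 4.89% of all genes for HS3A8-high and 5.67% for HS3A8-low. DESeq2 called H2-Ob lower in HS3A8-high and Irf8 higher in HS3A8-low, the latter named after its value was seen.

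**Figure D4:**
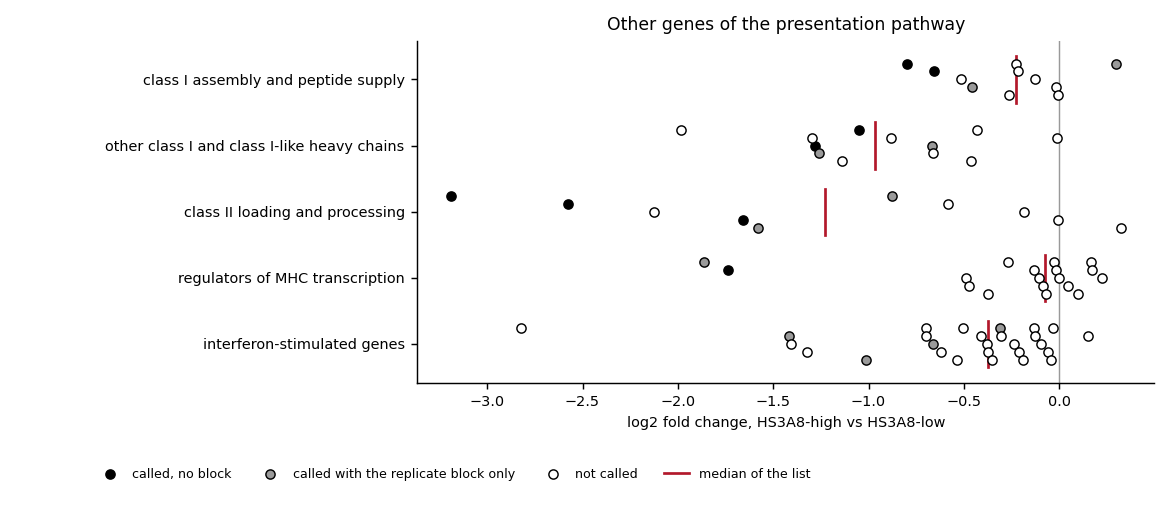
Log2 fold change between HS3A8-high and HS3A8-low of the 78 tested genes in 5 lists of the presentation pathway, with 1 circle for each gene. Black circles were called by edgeR without the block and grey ones with it only, and the red line is the median. The class II loading list has the lowest median, -1.23, and the regulators sit near 0, at -0.08.

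Genes whose pattern across the 9 libraries was most like that of Cd74 were found by Pearson's r of log2 CPM among 9346 genes with at least 5 CPM on average. They were H2-Aa (r = 0.996), Ccng2 (0.994), the T cell receptor gene Trbc1 (0.992), Gmfg (0.991) and Rnase6 (0.988). For B2m they included the class I-like Mr1 (r = 0.952), H2-Q6 (0.947), Mbd6 (0.940) and Prkcq (0.939). These are descriptions over libraries that share a sort and its contrast between fractions. Within the members, r was 0.949 for H2-Aa with H2-Ab1, 0.944 for H2-K1 with H2-D1 and 0.409 for Tap1 with Tapbp. Between Ciita and the other members r was 0.02 to 0.40.

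Markers of other cells were read beside class II. Of all 11791 genes tested between the fractions, 6292 had lower values in HS3A8-high, and 15.7% had them without overlap. edgeR called 3.21% of all genes lower, and with the block 8.27% lower and 3.32% higher. H2-Aa, H2-Ab1, H2-Eb1 and Cd74 together had 36.6 to 54.9 CPM in HS3A8-high, 206 to 294 in HS3A8-low and 87.1 to 210 in the control. The 14 B cell genes summed to 4.94 to 44.8, 48.5 to 123 and 25.7 to 34.9 CPM in the same groups, mostly as Ighm, and Cd22 was the B cell gene called lower in HS3A8-high (3 genes with the block, Cd22, Cd79b and Ighm). All 5 B cell genes that could be tested had lower values in HS3A8-high. Cd79b, for example, had means of 1.72 CPM (HS3A8-high), 9.11 CPM (HS3A8-low) and 4.78 CPM (control). Cd22 and the dendritic gene Itgax could be tested against the control only in HS3A8-low, so the count filter favours their lower values in HS3A8-high. Ighm, Cd79b, Blnk, Vpreb1, Vpreb3 and Igkc had counts in all 9 libraries, while Ms4a1 and Pax5, which define B cells, had 0 counts in all 9 and Ebf1 had 0 in 7. The 10 dendritic cell genes summed to 98.6 to 137, 102 to 124 and 90.5 to 123 CPM, mostly as Zbtb46, with means of 107 CPM (HS3A8-high) and 73.3 CPM (HS3A8-low). The other 3 dendritic genes tested had lower values in HS3A8-high without overlap, with log2 differences of -4.12 for Itgax, -2.39 for Flt3 and -1.51 for Ccr9. Flt3 had means of 5.67 CPM (HS3A8-high), 29.9 CPM (HS3A8-low) and 23.4 CPM (control). No dendritic gene was called without the block, and with it Zbtb46 was called higher and Itgax lower in HS3A8-high. Clec9a had 0 counts in 5 libraries, Itgax and Cd209a in 4, Clec10a in 3 and Siglech in 2. Batf3, Xcr1 and Ccr9 had 0 in 1 library each, and Zbtb46 and Flt3 had counts in all 9.

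The 16 monocyte and macrophage genes, led by Lyz2, Ly6c2 and F13a1, summed to 878 CPM in HS3A8-high replicate 3 and 2585 CPM in HS3A8-low replicate 3. In the other libraries they summed to 8.36 to 15.7 in HS3A8-high, 82.2 to 94.0 in HS3A8-low and 33.8 to 85.9 in the control. The 11 monocyte and 6 granulocyte genes tested all had lower values in HS3A8-high, as had 6292 of all 11791 genes. Their median log2 differences were -1.65 and -1.39. Cx3cr1 and S100a9 among them could be tested against the control only in HS3A8-low, so the count filter favours this direction. None of these genes was called without the block, where 3.21% of all genes were called lower. With the block, 6 monocyte and 2 granulocyte genes were called lower in HS3A8-high, beside 8.27% of all genes. Without replicate 3 of both fractions the 4 class II genes H2-Aa, H2-Ab1, H2-Eb1 and Cd74 stayed called, at log2 differences of -3.89, -1.42, -2.49 and -3.82. The 7 basophil and mast cell genes summed to 1.62 to 81.1, 22.9 to 169 and 10.2 to 25.1 CPM, and none was called without the block (1 with it, Cpa3). The part of these cells in the class II result was not tested.

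Summed levels of T and NK cell, stem and multipotent, and megakaryocyte genes were also lower in every HS3A8-high library than in any HS3A8-low library. Of their genes, 11, 8 and 9 could be tested. Their calls stand beside 3.21% of all genes called lower without the block and 8.27% with it. The 12 T and NK genes summed to 4.56 to 44.4 CPM in HS3A8-high, 172 to 188 in HS3A8-low and 47.6 to 112 in the control, and Trbc1 and Nkg7 were called lower in HS3A8-high (4 genes with the block). The 9 stem and multipotent genes summed to 47.1 to 63.6, 183 to 245 and 133 to 137 CPM, with Meis1 and Hlf called (6 genes with the block). Cd34 had means of 5.02 CPM (HS3A8-high) and 55.3 CPM (HS3A8-low), a difference called with the block only (adjusted p = 0.0701 in edgeR, 0.0178 with the block). The 12 megakaryocyte genes summed to 26.6 to 42.1, 184 to 367 and 126 to 225 CPM, with 4 called (7 with the block), among them Itga2b and Pf4. MEP and erythroid sums were higher in HS3A8-high, with Car1 the most abundant gene of the list, at 48823 to 84420 counts a library. Of these 12 genes, 10 had higher values in HS3A8-high, as had 5499 of all 11791 genes. The other 2, Hba-a1 and Hbb-bt, had log2 differences of -0.20 and -0.48 and were not called. Car1 was called higher, by 0.36 on the log2 scale (3 genes with the block). Over all 11791 genes, 72 were called higher (3.32% with the block). In the control, replicate 1 had the most class II, B cell, monocyte, basophil and mast cell, T and NK and megakaryocyte RNA of its group. It had the least granulocyte, dendritic, stem and multipotent, and MEP and erythroid RNA. Whether these cells or the MEPs themselves held the MHC class II RNA was not tested.

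**Figure D5:**
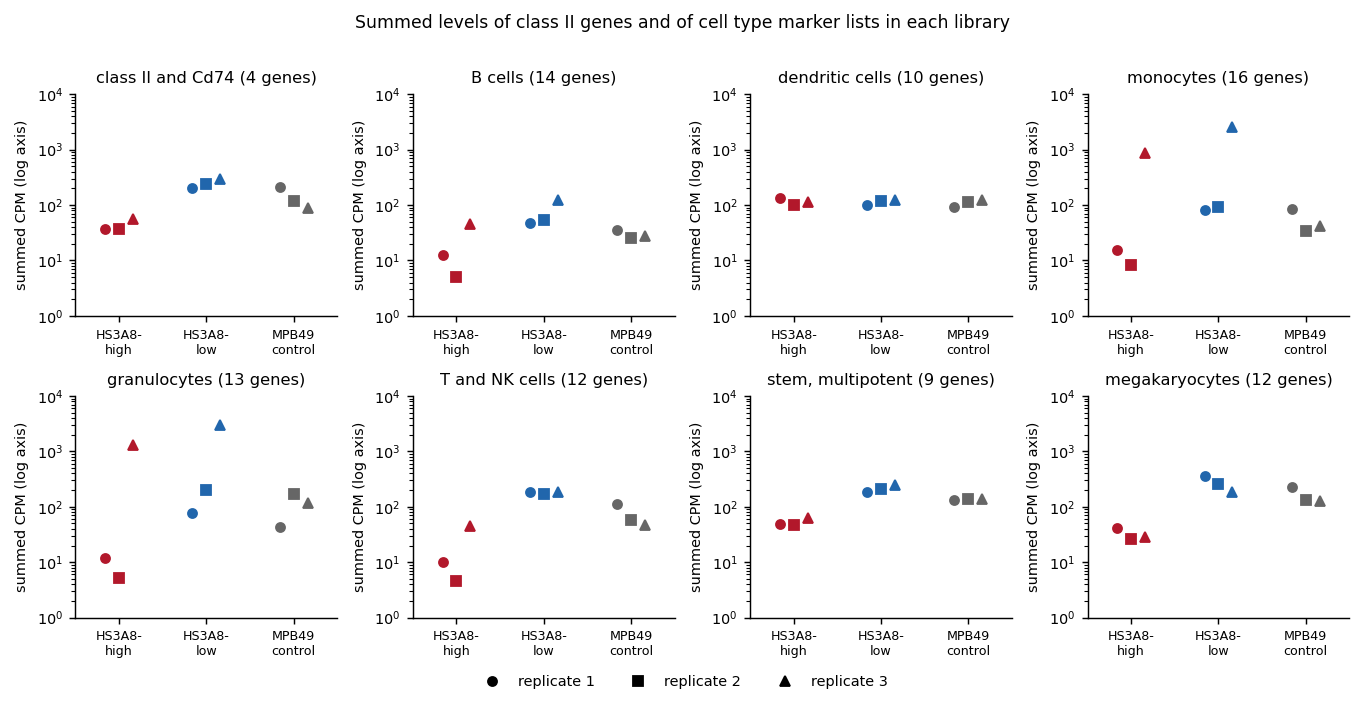
Summed CPM, on a log axis, of H2-Aa, H2-Ab1, H2-Eb1 and Cd74 and of 7 cell type marker lists in each library. Each symbol is a library. Class II, B cell, T and NK, stem and megakaryocyte sums separate HS3A8-high from HS3A8-low in all libraries, while monocyte and granulocyte sums are highest in replicate 3 of both fractions.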

How the data were processed

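RNA-seq was made by the authors from MEPs in 9 libraries. The submitters' processing notes name STAR 2.5, HTSeq 0.6.1 and mm10. The values deposited by the authors are unnormalized read counts, a whole number for each gene and library. The annotation release and the strand setting are not given in the sources used here. GENCODE M21 symbols (GRCm38) matched 34490 of 35275 identifiers.

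Counts were tested in R 4.3.3 with the edgeR 4.0.16 quasi-likelihood test (TMM, filterByExpr, only the groups compared, Benjamini-Hochberg over all genes tested), and with DESeq2 1.42.0 as an alternative. CPM printed for a gene are TMM-scaled over all 9 libraries. The tests were first tested on simulated counts. Other alternatives were DESeq2 size factors, no filter, a filter at a mean count of 10, a joint fit of all 9 libraries, the replicate block and each library left out. A fit without replicate 3 of both fractions was added after seeing the data. No column of the count table was left unassigned.

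Replicate numbers were checked for pairing over 12108 genes. After subtraction of group means, r between the fractions was 0.325 to 0.509 for equal numbers and -0.469 to 0.122 for unequal ones, so the numbers were taken to pair them, a hint from the data since the labels do not say what a number shares. The control was not paired with either fraction (r from -0.346 to 0.0318).

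The genes named are the 10 members, the 3 most abundant of each list, every called pathway gene and the 5 genes most like Cd74 and B2m, of which 1 is not reported here. Others are named where a result turns on them. Members and lists were chosen with earlier results of these data known. Counting error alone is covered by the limit for a count of 0. Promoter sequences are from RefSeq (GRCm38.p6) and were read for 7 of the 10 members. Entries on chromosome 18, where Cd74 lies, were left out.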

Additional observations from a re-analysis of the deposited data

How the results depend on the processing

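Between HS3A8-high and HS3A8-low, 6 members were called, and 4 to 7 under the alternatives that kept all 6 libraries, the 7 with the replicate block. Leaving out 1 library gave 0 to 4 member calls and 0 to 7 pathway calls. Fewer libraries entered these fits, and calls over all genes ran from 0 to 439, against 451. Without replicate 3 of both fractions, chosen after seeing the data, 4 members and 11 pathway genes were called. Each member's difference between the fractions stayed negative in every fit that tested it, and Ciita was not tested without HS3A8-low replicate 1. With 1 library left out, Cd74 ranged from -3.94 to -3.15 and H2-Ab1 from -1.71 to -1.37. Pathway calls went from 8 to 19 with the replicate block and to 4 with all 9 libraries in 1 fit. Against the control, the DESeq2 test called 4 members in HS3A8-high and 1 pathway gene in each fraction, and the fit of all 9 libraries called 1 pathway gene in HS3A8-high. The block gave 0 calls there and changed no other call of a member than that of B2m. In HS3A8-low against the control the sign turned with 1 library left out for H2-K1 (range -0.045 to 0.309), H2-D1 (-0.041 to 0.263), Tap1 (-0.178 to 0.175) and Ciita (-0.014 to 3.37), none of them called. The cause was not tested. Depth limits Ciita, at 0 to 61 counts, and 3 libraries a group limit exact tests to p = 0.1.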
